A study of Mus musculus with 4 samples.

Results

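Distal regions of stable accessibility are stretches of open chromatin away from gene starts whose signal was nearly equal in all 4 libraries of a comparison of WT and IRF8KO mouse microglia. There were 2095 of them, among 21851 distal regions and 37887 regions of any position found in all 4 libraries, and among 93336 regions found in at least 1. They were chosen by their own signal: peaks on the 19 autosomes with a pileup of at least 0.25 per 1000000 tags were merged, each library's largest pileup in a region was divided by that library's median over the regions found in all 4, and the largest of the 4 scaled values was at most 1.25 times the smallest. Every member also lay more than 1 kb from each annotated transcription start site (TSS) of a protein-coding or long non-coding RNA gene. Equality of the 4 values is therefore the definition of the regions and not a result. What can be described is where they lie, which sequences they hold, how strong they are and which genes are nearest.

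The cells were microglia, the resident macrophages of the brain, sorted by flow cytometry from untreated C57BL/6 mice 3 months old. The genotypes were profiled by ATAC-seq, in which the Tn5 transposase inserts adapters into open DNA: 2 libraries carried the WT label and 2 the IRF8KO label, with no further allele or agent in either. The labels do not state which part of Irf8 is absent in the knockout, nor whether the libraries of a genotype came from separate animals. Any spread between them may thus be technical.

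Distal open regions are mostly enhancers and insulators. In macrophages the ETS factor PU.1 opens much of the enhancer landscape, and IRF8, which binds many of its sites only with a partner, joins PU.1 on a composite element in which an ETS half-site is followed by an IRF half-site. CTCF is a zinc-finger protein found in nearly every cell type that holds the anchors of chromatin loops together with cohesin, and its sites tend to be shared between cell states.

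The sequences below come from members with the largest mean scaled pileup among those that hold a given motif, and they show the elements on which the comparisons turn. Each is a stretch of 121 bases of GRCm38 in the 5′ to 3′ direction of the motif, whose bases are in capitals. The first CTCF stretch is chr1:106511711-106511831 on the plus strand, in an intergenic region 29.8 kb upstream of D630008O14Rik, and the other is chr17:12249873-12249993 on the minus strand, in an intron of Map3k4. The ETS-IRF stretches are chr3:20027457-20027577 on the minus strand, in an intron of Hps3, and chr6:120112588-120112708 on the minus strand, in an intron of Ninj2. The PU.1 stretch is chr3:127355345-127355465 on the minus strand, in an intron of Ank2, and the AP-1 stretch is chr8:69716954-69717074 on the plus strand, in an intergenic region 5.65 kb upstream of Zfp869.
CTCF, near D630008O14Rik: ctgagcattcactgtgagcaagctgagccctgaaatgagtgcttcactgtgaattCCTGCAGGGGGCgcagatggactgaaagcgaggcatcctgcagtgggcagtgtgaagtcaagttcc
CTCF, in Map3k4: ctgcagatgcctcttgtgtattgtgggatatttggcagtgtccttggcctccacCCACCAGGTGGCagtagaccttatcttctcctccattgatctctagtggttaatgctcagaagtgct
ETS-IRF, in Hps3: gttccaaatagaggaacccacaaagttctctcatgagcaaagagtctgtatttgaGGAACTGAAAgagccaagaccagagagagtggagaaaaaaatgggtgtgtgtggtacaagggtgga
ETS-IRF, in Ninj2: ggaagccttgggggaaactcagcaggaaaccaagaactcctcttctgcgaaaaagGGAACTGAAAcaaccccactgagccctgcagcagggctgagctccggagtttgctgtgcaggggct
PU.1, in Ank2: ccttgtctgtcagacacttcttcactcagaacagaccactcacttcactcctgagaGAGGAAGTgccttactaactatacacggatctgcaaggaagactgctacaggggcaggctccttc
AP-1, near Zfp869: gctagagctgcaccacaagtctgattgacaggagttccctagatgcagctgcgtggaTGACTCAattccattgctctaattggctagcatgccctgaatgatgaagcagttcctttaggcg

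These 6 regions had the following largest pileups, which count the extended cut sites over the highest position. The CTCF region near D630008O14Rik had 185 (WT replicate 1), 161 (WT replicate 2), 182 (IRF8KO replicate 1) and 247 (IRF8KO replicate 2), which scaled to 3.19, 3.29, 3.14 and 3.25. The CTCF region in Map3k4 had 146, 138, 164 and 204 in the same order of libraries, or 2.52, 2.82, 2.83 and 2.68 once scaled. After scaling, no genotype lay apart in either region. The ETS-IRF region in Hps3, a gene of lysosome-related organelle biogenesis, had pileups of 327, 246, 321 and 432, with scaled means ± SD (n = 2) of 5.33 ± 0.437 for WT and 5.61 ± 0.106 for IRF8KO. The ETS-IRF region in Ninj2, which encodes an adhesion protein, had 293, 245, 311 and 360, with scaled means of 5.03 ± 0.0366 and 5.05 ± 0.442. The 2 composite sites carried the same 10 bases. The rule required close scaled values in both regions, so nothing is read from their similar genotype means. The PU.1 region in Ank2 had pileups of 439, 323, 411 and 546, with scaled means of 7.08 ± 0.691 in WT and 7.14 ± 0.0693 in IRF8KO. The AP-1 region near Zfp869 had 536, 465, 644 and 799, and both IRF8KO values (11.1 and 10.5 scaled) lay above both WT values (9.24 and 9.49).

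**Figure D1:**
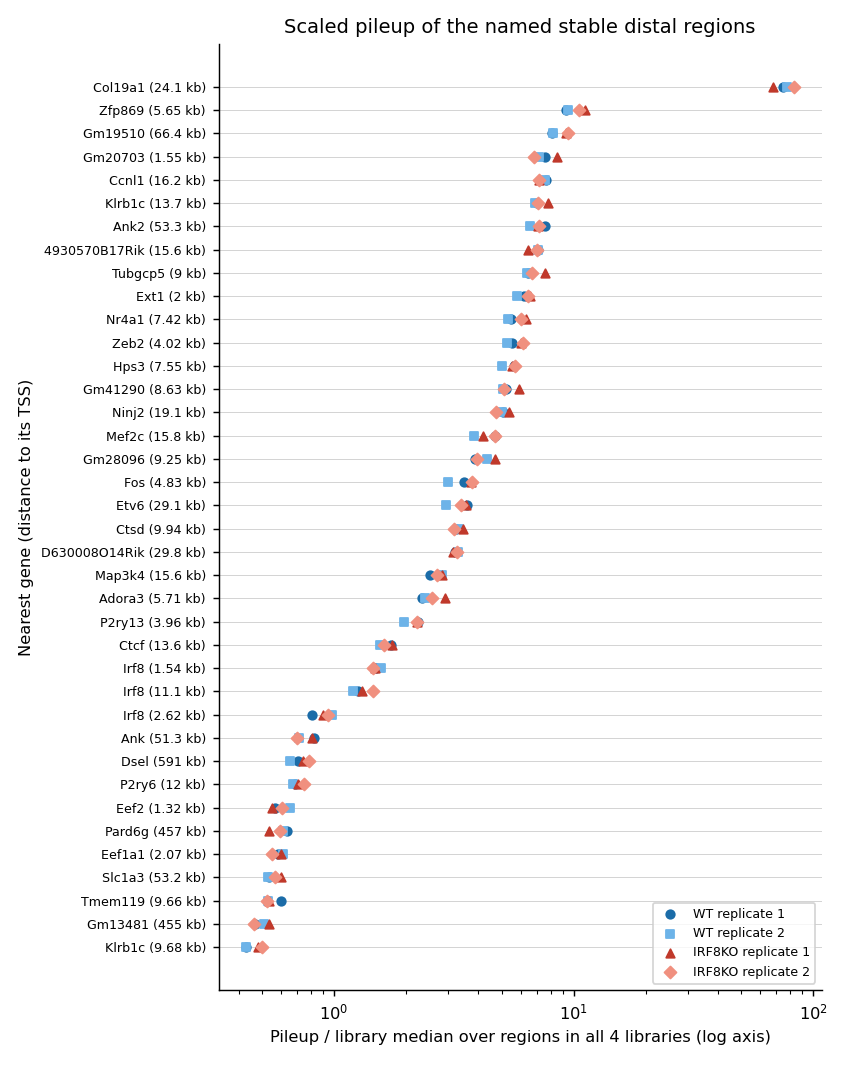
Scaled pileup (pileup over the library's median across regions found in all 4 libraries, log axis) of the named members, with the nearest gene and the distance to its TSS on the vertical axis and 1 symbol per library. The 4 symbols of each region lie close together because the regions were selected for that, while levels run from about 0.461 beside Klrb1c to 75.8 beside Col19a1.

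Depth and scaling bear on every count given here. The WT libraries held 46948938 and 48896408 tags and the IRF8KO libraries 78793572 and 66224648, so depth followed genotype, as did the tag size of 50 and 49 bp, and their effects cannot be told apart from genotype. IRF8KO replicate 1 stood apart: it had the most tags but the fewest peaks above the floor (50837, against 68931 to 79771), and its median pileup over the regions found in all 4 libraries was 58, where IRF8KO replicate 2 had 76 and the WT libraries had 58 and 49. Dividing by these medians sets the libraries equal over the regions they share. Dividing by tags instead leaves IRF8KO replicate 1 as the lowest library in all 2095 members, with ratios of largest to smallest of 1.34 to 2.1 (median 1.71). Stable here means stable relative to the other regions found in all 4 libraries. By tags, 339 distal regions met the limit and none of them was a member. The count also moved with each library: it was 3968 without WT replicate 1, 4170 without WT replicate 2, 5721 without IRF8KO replicate 1 and 4360 without IRF8KO replicate 2. Fewer values then had to meet the limit, and more distal regions qualified (22340 to 28282). Over the 21851 regions alone, the other 3 libraries met the limit in 3926, 4036, 4549 and 4326 in the same order.

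Of the distal regions found in all 4 libraries 9.59% were members, a share set by the limit. The ratio ran from 1.02 to 1.25 in members, with a median of 1.18, and had a median of 1.75 and a highest value of 22.8 in the other 19756 distal regions. Just inside the limit lay a region in an intron of Slc10a7, with scaled values of 0.603, 0.531, 0.483 and 0.553, and just outside it lay one 54.1 kb from Utp18, with 3.47, 3.02, 3.78 and 3.51. The limit thus cuts through a continuous distribution, in which the members are the left edge and not a separate group. The same limit took in 3472 of 16036 regions within 1 kb of a TSS, or 21.7%.

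Members had a mean WT over IRF8KO ratio from 0.807 to 1.23, with a median of 1.0. Both WT values lay above both IRF8KO values in 359 members (17.1%), against 28.6% of all distal regions found in 4 libraries. The converse order held in 389 members (18.6%), against 35.7%. In the other 1347 members the genotypes overlapped. The rule used these same values, so nothing is read from the shares.

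How a library compared with the other 3 was described by setting the limit on 3 libraries and reading the fourth, a description added after the values were seen. It is not independent of the rule, since all 21851 regions had to have a peak above the floor in all 4 libraries and the same pileups define the members. Among distal regions within the limit in the other 3 libraries, the value of WT replicate 1 lay within a factor of 1.25 of their mean in 70.6% of 3926 regions. Among regions beyond the limit in those 3 libraries it did so in 42.7% of 17925. For WT replicate 2 the shares were 70.2% and 43.9%, for IRF8KO replicate 1 they were 63.8% and 42.6%, and for IRF8KO replicate 2 they were 66.9% and 44.2%. The gap was wide in the highest of 5 equal groups of regions by signal (83.4% and 42.3% for WT replicate 2) and narrower in the lowest group. There WT replicate 1 gave 59.0% and 49.3%, WT replicate 2 gave 62.5% and 54.7% and IRF8KO replicate 2 gave 59.3% and 50.2%. For IRF8KO replicate 1 the shares were 63.9% and 62.0%. Nothing on stability is read from these shares. The 95% Wilson intervals given below cover counting error over regions only, and regions are not replicates of a genotype.

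**Figure D2:**
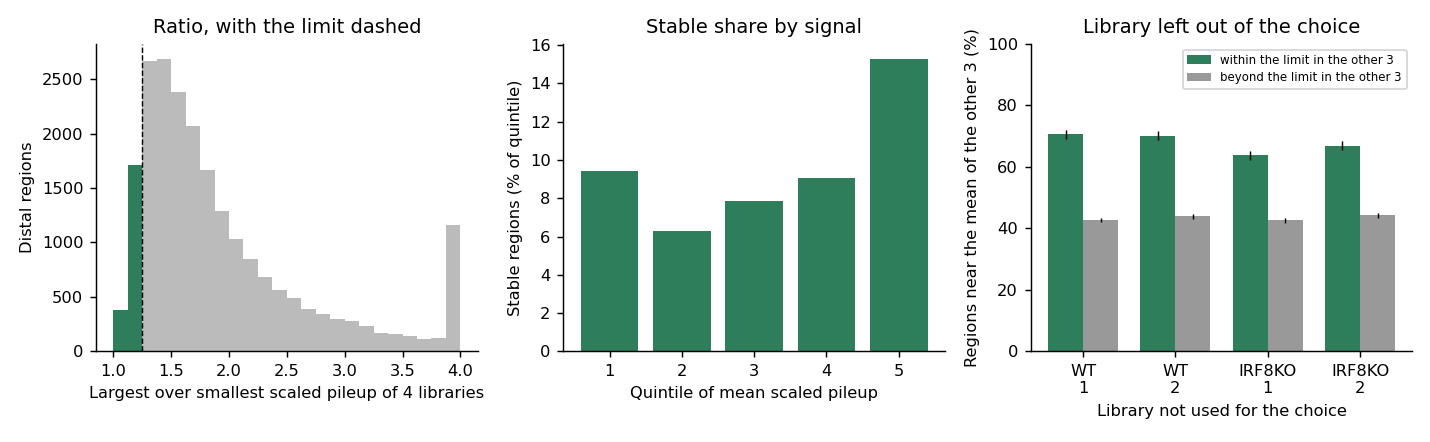
Left, number of distal regions by ratio of largest to smallest scaled pileup, with members in green, the limit dashed and all ratios beyond the axis in the last bar; middle, members as a share of each of 5 equal groups of regions by mean scaled pileup; right, for each library, the share of regions (bars, with 95% Wilson intervals for counting error) whose value lay within a factor of 1.25 of the mean of the other 3, by whether those 3 met the limit. The middle bars dip to 6.29% and reach 15.3%, and the bars on the right, drawn from pileups that the rule used, run from 63.8% to 70.6% (green) and from 42.6% to 44.2% (grey).

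The members spanned a wide range of signal. Their median pileup was 60 and 50 in WT and 59 and 79 in IRF8KO, with lowest values of 14 to 21 and highest values of 3784 to 6322. Divided by mean scaled pileup into 5 equal groups, from low to high, distal regions found in all 4 libraries were members in 9.45%, 6.29%, 7.85%, 9.04% and 15.3%. The highest group held 669 members, or 31.9% of them. At its median pileup of 145 counting error alone is 8.30% of a value, whereas at the median of 24 in the lowest group it is 20.4%. The lowest group is in addition cut off from below, since a peak had to reach a pileup of 11.7 and 12.2 in WT and 19.7 and 16.6 in IRF8KO, which limits how far 4 low values can differ. For this reason motif shares are given below by signal as well.

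The member with the most signal, chr1:24611563-24615948, lay in an intergenic region 24.1 kb upstream of Col19a1, a collagen gene. Its pileups were 4340 and 3784 in WT and 3947 and 6322 in IRF8KO, with scaled means of 76.0 ± 1.69 and 75.6 ± 10.7. It stood apart in sequence too: 98.7% of its 4355 stretches of 32 bases also occur in the mitochondrial genome, so reads from mitochondrial DNA and reads from this locus cannot be told apart. The next was the Zfp869 region (mean scaled pileup 10.1), followed by one 66.4 kb from Gm19510 (8.75), one 1.55 kb from Gm20703 (7.52) and one 16.2 kb upstream of Ccnl1, a cyclin of the splicing machinery (7.40). None of these 4 shared a stretch with the mitochondrial genome. The Ccnl1 region, chr3:65974452-65975076, had pileups of 444, 372, 417 and 544, which scaled to 7.66, 7.59, 7.19 and 7.16. Its WT mean of 7.62 ± 0.0448 was 1.06 times its IRF8KO mean of 7.17 ± 0.0225, with no overlap of the libraries. The rule used these values, so the gap was not tested, and an exact permutation test of 2 against 2 libraries gives a p of 0.333 at the lowest. Sequence repeated elsewhere in the genome made up most of the summit window in 95 members (4.53%, 3.72% to 5.51%) and in 920 other distal regions (4.66%, 4.37% to 4.96%).

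In shape the members differed little from other distal regions. The median region was 404 bp long, against 394 bp. The median peak within it measured 308 and 290 bp in WT and 323 and 345 bp in IRF8KO, against 286, 268, 297 and 328 bp in the other distal regions. Members held 1.89, 1.73, 2.0 and 1.91 summits per library on average, where the others held 1.74, 1.59, 1.85 and 1.79. The 4 libraries placed the strongest summit within a median span of 20 bp in members and of 27 bp in the others, and within 50 bp in 68.6% and 65.0%. Signal was larger in members (median mean scaled pileup 1.04 and 0.814), and its part in these gaps was not tested.

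Members were spread over the genome like the set from which they were drawn. They lay a median of 9.37 kb from the nearest TSS, against 10.2 kb, and 61 of them (2.91%) lay over 100 kb away. Introns held 1113 (53.1%), intergenic sequence 858 (41.0%), untranslated exon parts 49, other exons of non-coding transcripts 42 and coding exons 33. The member share was 9.49% in introns, 9.79% between genes (9.19% to 10.4%) and 7.57% in coding exons (5.44% to 10.4%), with overlapping intervals. It ran by chromosome from 7.42% on chromosome 11 to 11.2% on chromosome 13. The most remote member was an intergenic region, chr1:112456178-112456381, 591 kb upstream of Dsel, with pileups of 41, 32, 43 and 60. Base composition did differ: 195 members (9.31%) had an observed to expected CpG ratio above 0.6, the level of CpG islands, against 6.99% of other distal regions, and regions above it were members in 12.4% (10.8% to 14.1%) against 9.37% (8.98% to 9.78%) below it. Of all members, 58 (2.77%) had the start of another kind of transcript within 1 kb, the same share as in other distal regions (2.77%). Among the 58 were 24 of the annotation class TEC and 8 of miRNAs.

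Motifs were searched in the 201 bases around the mean summit on both strands. Their letters were GGAANNGAAA for ETS-IRF, GAAANNGAAA for the interferon-stimulated response element (ISRE), GAGGAAGT for PU.1, CCGGAAG for other ETS factors, TGACTCA for AP-1, TTGCNNAA for CEBP, TGTGGTT for RUNX, TGCTGAC for MAF, CACGTG for the E-box, GGGANTTTCC for NF-kB, GCGCATGCGC for NRF1, GGGCGGG for SP and KLF factors and AAGATGGCG for YY1, while the CTCF core and the MEF2 site need further letters and are given by name. Matches of different motifs were counted separately even where they shared bases, as GAAA of ETS-IRF and ISRE can, and a match is a description of sequence, not of binding. Of the members, 864 (41.2%) had none of the 15. Among the 9032 distal regions with none, 9.57% were members, near the 9.59% of all distal regions.

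CTCF matches were more frequent in members than in other distal regions. One was present in 247 (11.8%, interval 10.5% to 13.2%), in 7.93% of other distal regions (7.56% to 8.32%) and in 0.382% of windows 1 kb to either side of members (0.235% to 0.619%). It was rare in both sets of regions that differed between the genotypes by fold. Regions weakened in IRF8KO, in which both IRF8KO values lay at least 1.5 times below both WT values (2073 regions, 9.49% of distal regions found in all 4 libraries), held it in 1.83% (1.34% to 2.51%). Regions strengthened by the same measure (2899 regions, 13.3%) held it in 1.76% (1.34% to 2.31%). Read the other way, 13.6% of distal regions with a CTCF match were members (12.1% to 15.3%), 2.09% were weakened and 2.81% strengthened, where over all distal regions these shares were 9.59%, 9.49% and 13.3%. The difference of 3.86 percentage points between members and others was 9.25 with pileups divided by tags, 1.49 by fold enrichment and 1.34 with a floor of 0.5 per 1000000 tags.

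CTCF members were weak, short and more often intergenic. Their median scaled pileups were 0.569 and 0.571 in WT and 0.569 and 0.566 in IRF8KO, or pileups of 33, 28, 33 and 43, about the level of the second group of 5 by signal. Their regions had a median of 304 bp, 58.3% were intergenic and 35.6% intronic, and 40.9% fell in the lowest group. By signal from low to high, CTCF matches were present in 24.5%, 18.5%, 14.3%, 7.85% and 2.24% of members and in 15.8%, 10.5%, 6.56%, 3.92% and 2.46% of other distal regions. The intervals of members and others did not overlap in the lower 4 groups (20.6% to 28.8% against 14.7% to 17.0% in the lowest), but in the highest they did (1.36% to 3.67% against 2.01% to 3.01%). The larger CTCF share of members was thus a property of weak and medium regions. The match lay a median of 36 bp from the summit, with 44.5% within 30 bp and few (2.83% and 2.02%) at 60 to 80 bp on either side. In both sequences printed above the match lies 51 and 48 bp before the summit in genome coordinates. One CTCF member had Ctcf itself as its nearest gene: chr8:105622273-105622948, 13.6 kb upstream of the Ctcf TSS in an intron of Agrp, with scaled values of 1.72, 1.55, 1.74 and 1.62 and scaled means of 1.64 ± 0.122 in WT and 1.68 ± 0.0869 in IRF8KO.

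The composite element of PU.1 and IRF factors was less frequent in members. An ETS-IRF match was present in 70 (3.34%, 2.65% to 4.20%), in 5.18% of other distal regions (4.88% to 5.50%), in 15.2% of weakened regions (13.8% to 16.9%) and in 2.83% of strengthened regions (2.28% to 3.50%). It was still above the 1.65% of the flanking windows (1.30% to 2.08%). With fold enrichment in place of pileup the difference from other distal regions was -0.381 percentage points, with an interval (-1.15 to 0.487) that spans 0. Of distal regions with a match 6.4% were members (5.10% to 8.01%) and 28.9% were weakened. The 70 members with a match were strong, with a median mean scaled pileup of 1.70 and 51.4% in the highest group by signal. Their 72 sites most often read GGAAGTGAAA (17 sites), then GGAAATGAAA, GGAACAGAAA and GGAACTGAAA (9 sites each), the last being the one in Hps3 and Ninj2. In every group by signal the share was lower in members. It was 1.69% against 2.73% in the lowest and 5.38% (3.91% to 7.36%) against 8.13% (7.30% to 9.06%) in the highest. The intervals were apart only in the second group (0.727% and 3.35%) and the fourth (3.54% and 6.94%). For the highest group the difference was -2.75 percentage points, with an interval of its own from -4.49 to -0.603. The simple ISRE was as frequent in members (3.20%, 2.53% to 4.04%) as in their flanks (3.08%, 2.60% to 3.65%). It stood at 3.90% in other distal regions (3.64% to 4.18%), an interval that overlaps that of members, and at 6.17% in weakened regions.

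PU.1 matches were common and did not set members apart as a whole: 305 held one (14.6%, 13.1% to 16.1%), against 14.4% of other distal regions (14.0% to 14.9%) and 1.46% of flanking windows. With pileups divided by tags the share in the regions then chosen was 9.44%, a difference of -5.09 percentage points from the rest (-7.80 to -1.47). By signal from low to high, matches were present in 7.99%, 8.36%, 11.1%, 13.7% and 23.5% of members and in 9.98%, 13%, 14.6%, 17.4% and 17.3% of others. Members thus lay below others in the lower 4 groups, with intervals that overlapped in each, and above them in the highest, which held 31.9% of members. In the highest group 23.5% of members did (20.4% to 26.8%), against 17.3% of others (16.2% to 18.6%), and the intervals were apart. PU.1 members were strong, with medians of 1.69 and 1.65 in WT and 1.67 and 1.70 in IRF8KO, and 60.3% were intronic. Their matches lay a median of 31 bp from the summit, and 49.5% lay within 30 bp. Of the PU.1 members 13 (4.26%) also held an ETS-IRF match, 29 (9.51%) a CEBP match, 24 (7.87%) a RUNX match and 17 (5.57%) an AP-1 match. Over all members these shares were near, at 3.34%, 10.3%, 7.83% and 6.49%. A CTCF match was held by 8 PU.1 members (2.62%), against 11.8% of all members. PU.1 members had more signal than CTCF members, and the part of signal in this gap was not tested. Of the 15 motifs PU.1 was the most frequent in members of the highest group by signal (23.5%), and CTCF was the most frequent in members of the lowest (24.5%).

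**Figure D3:**
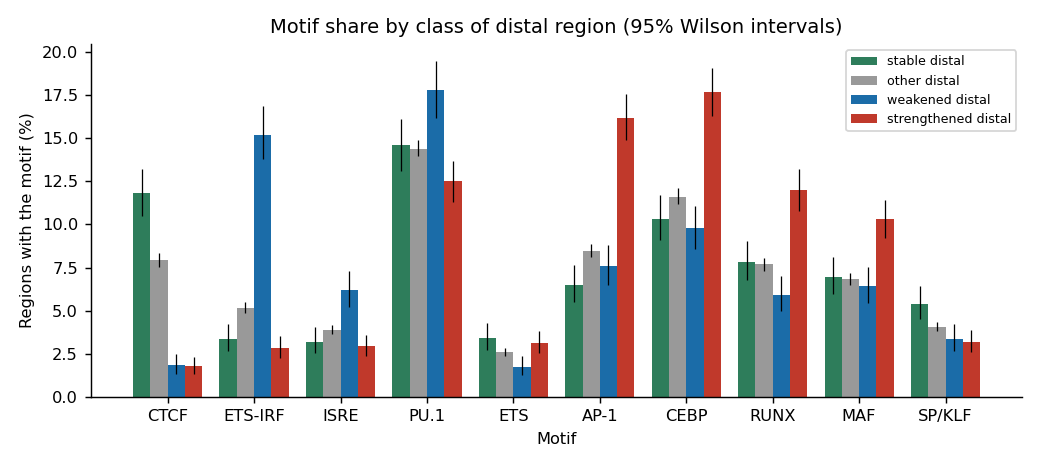
Share of regions with each motif (vertical axis, %, with 95% Wilson intervals) in members (green), in the other distal regions found in all 4 libraries (grey), and in those of them weakened (blue) or strengthened (red) in IRF8KO. CTCF is most frequent in members (11.8%), ETS-IRF in weakened regions (15.2%), and AP-1 (16.2%) and CEBP (17.7%) in strengthened regions.

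AP-1, CEBP, RUNX and MAF motifs were frequent in strengthened regions and less so in members. AP-1, the dimer of Fos and Jun proteins, had a match in 136 (6.49%, 5.51% to 7.63%), in 8.48% of other distal regions (8.10% to 8.88%), in 7.57% of weakened and in 16.2% of strengthened regions (14.9% to 17.6%). By signal from low to high the shares in members were 6.05%, 4.0%, 6.71%, 4.56% and 8.82%, and in others 5.71%, 6.25%, 8.72%, 10.1% and 11.9%, so that members lay above others in the lowest group alone. The intervals were apart in the fourth group (2.9% to 7.09% against 9.24% to 11.1%). In the highest group the shares were 8.82% in members (6.90% to 11.2%) and 11.9% in others (10.9% to 13%), which overlap by a narrow margin. The difference there was -3.07 percentage points (-5.27 to -0.477). The difference of -1.99 percentage points between members and others was -3.63 with pileups divided by tags, -3.32 with a floor of 0.5 per 1000000 tags and -1.19 by fold enrichment. Of distal regions with an AP-1 match 7.51% were members and 26.0% were strengthened. CEBP, a macrophage factor family, had a match in 10.3% of members (9.08% to 11.7%) and 11.6% of others (11.2% to 12.1%), again below the 17.7% of strengthened regions. RUNX (7.83% and 7.68%) and MAF (6.97% and 6.85%) had overlapping intervals in members and others, and both were more frequent in strengthened regions (12.0% and 10.3%). The RUNX difference of 0.149 percentage points was -1.01 (-1.73 to -0.274) with a ratio limit of 1.5 and -0.979 (-1.80 to -0.101) without IRF8KO replicate 2. MEF2 (14 members), NF-kB (6) and YY1 (2) were rare, and NRF1 was found in 0 of 2095, which allows a share of up to 0.143% by the limit of 3 counts and 0.183% by the Wilson interval.

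Motifs typical of constitutive promoters were less frequent in members than in stable promoter regions, and their differences from other distal regions were small. The SP and KLF box was present in 5.39% of members (4.51% to 6.45%), 4.06% of others (3.80% to 4.35%) and 39.3% of stable promoter regions. The ETS site CCGGAAG was present in 3.44% (2.74% to 4.31%), 2.61% (2.39% to 2.84%) and 18.3% in the same order, and the E-box in 5.35%, 4.62% and 7.83%. YY1 (0.0955%, 0.248% and 2.76%) and NRF1 (0%, 0.0962% and 1.81%) were too rare in members to compare (2 and 0). The E-box difference had an interval from -0.209 to 1.81 percentage points, and with pileups divided by tags the differences turned to -0.0632 for SP and KLF and to -1.47 for the E-box. By contrast CTCF was present in 3.28% of stable promoter regions (2.74% to 3.93%), below its share in the distal members.

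**Figure D4:**
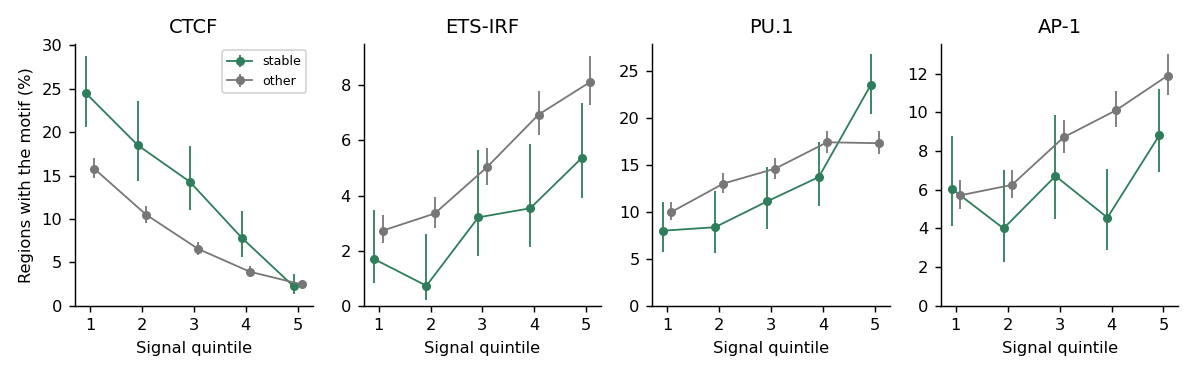
Share of regions with a CTCF, ETS-IRF, PU.1 or AP-1 match (vertical axes, %, 95% Wilson intervals) in members (green) and other distal regions (grey), in 5 groups by mean scaled pileup from low (1) to high (5). The CTCF lines fall from 24.5% and 15.8% to near 2% and meet at the high end, and the PU.1 lines cross, with members at 8.36% in the second group and 23.5% in the highest.

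**Figure D5:**
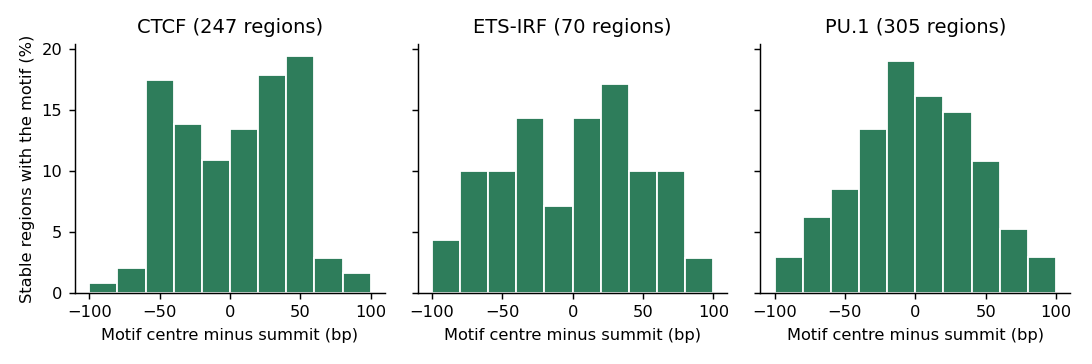
Distance in bp from the mean summit to the centre of the nearest match (horizontal axes, bins of 20 bp) for members with a CTCF, ETS-IRF or PU.1 match, as a share of those members in %. CTCF matches lie mostly within 60 bp to either side. They are fewer in the bins next to the summit (10.9% and 13.4%) than at 40 to 60 bp (17.4% and 19.4%). PU.1 matches have their highest bin (19.0%) next to the summit.

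Genes were assigned to members by distance alone, which does not show that a region acts on that gene. The members had 1791 nearest genes, of which 1534 had 1 member and 257 had more, while 9366 genes were nearest to any distal region found in 4 libraries. Ttc28 had the most, with 6 of the 20 distal regions nearest to it, followed by Tns3, which encodes the adhesion protein tensin 3, with 5 of 20, beside a member share of 9.59% over all distal regions. Both genes were named for these counts. Of the members, 241 (11.5%) lay within 10 kb of another and 666 (31.8%) within 50 kb, and the median distance to the next was 134 kb.

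Myeloid transcription factor genes had a share of members near that of all distal regions. Of 203 distal regions nearest to 38 of these 42 genes 22 were members (10.8%), beside 9.59% of all distal regions, and they belonged to 15 genes. The strongest was chr15:101246232-101246847, 7.42 kb upstream of Nr4a1, a nuclear receptor gene of the immediate response, with pileups of 317 and 260 in WT and 366 and 456 in IRF8KO. A region in an intron of Zeb2, a repressor that maintains macrophage identity, had 322, 257, 349 and 466. A PU.1 match lay in the region of Mef2c, a regulator of microglial gene expression, with pileups of 273, 188, 243 and 358 and scaled means of 4.27 ± 0.615 in WT and 4.45 ± 0.368 in IRF8KO. For Nr4a1 and Zeb2 both scaled IRF8KO values lay above both WT values, and for Mef2c the genotypes overlapped. A region 4.83 kb upstream of Fos had pileups of 201, 147, 216 and 285 and sat at the limit itself, with a ratio of 1.25. No member was nearest to Spi1, the gene of PU.1.

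The targeted gene itself had 3 members among its 14 distal regions (9.59% of all distal regions were members). In IRF8KO 2 of the 14 were strengthened, beside 13.3% of all distal regions. Irf8 also had a peak over a TSS in all 4 libraries. In a coding exon, chr8:120743593-120743940, pileups were 87 and 77 in WT and 86 and 110 in IRF8KO, scaled to 1.5, 1.57, 1.48 and 1.45. Both scaled WT values lay above both IRF8KO values. The rule required a peak in all 4 libraries and close values, so nothing on the knockout is read from this stretch. About 1 kb before it, at chr8:120742592-120742865, a region with a PU.1 match had 47, 48, 52 and 72. The third, chr8:120763299-120763647, lay 11.1 kb beyond an Irf8 TSS, also with a PU.1 match, and had 73, 59, 76 and 111, or scaled means of 1.23 ± 0.0386 and 1.39 ± 0.106. Irf2, which encodes a relative of IRF8 that mostly acts as a repressor, had 4 members among 11 distal regions, the strongest in an intron at chr8:46789171-46789984 with pileups of 169, 125, 170 and 232. Of Irf5, with 4 distal regions, 1 was a member, and of Irf1, with 3, none was.

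Genes that define resting microglia had 5 members. These were 5.88% of the 85 distal regions nearest to 21 such genes, of which 10 were weakened and 2 strengthened. Over all distal regions found in 4 libraries the shares were 9.59%, 9.49% and 13.3%, and the list was not tested against them. A region 5.71 kb from Adora3, an adenosine receptor gene, had pileups of 135, 117, 168 and 194. One 3.96 kb from P2ry13, a purinergic receptor gene, had 130, 96, 129 and 168, with scaled means of 2.1 ± 0.200 and 2.22 ± 0.00962. The regions of P2ry6, another purinergic receptor gene (40, 33, 41 and 57), and Tmem119, a microglial membrane protein gene (35, 26, 31 and 40), were weaker. None of the distal regions of P2ry12 (7), Cx3cr1 (6), Csf1r (6) or Siglech (5) was a member. As a check of the labelled cell type, 21 of the 25 autosomal genes of this list had a TSS peak above the floor in all 4 libraries, while Sall1, a defining factor of microglia, had none above the floor in any.

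Among genes of disease-associated microglia 2 of 41 distal regions were members (4.88%). One lay 9.94 kb upstream of Ctsd, the gene of the lysosomal protease cathepsin D, at chr7:142397978-142398438, with PU.1 and MAF matches and pileups of 187, 163, 200 and 241, or scaled values of 3.22, 3.33, 3.45 and 3.17. The other lay in an intron of Ank, a phosphate transporter gene, with 48, 35, 47 and 53. Of the 10 distal regions of interferon-stimulated genes none was a member. Housekeeping genes had 2 of 15, both weak, near the elongation factor genes Eef2 (33, 32, 32 and 46) and Eef1a1 (34, 30, 35 and 42), and genes of CTCF and cohesin had 1 of 9, the Ctcf region described above. No share of a list was tested against the 9.59% of all distal regions.

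Genes of other cell types had few TSS peaks shared by all libraries. No gene of 10 for neurons or of 10 for lymphocytes had a TSS peak above the floor in all 4 libraries, and 1 of 10 did for astrocytes, 1 of 9 for oligodendrocytes, 2 of 10 for endothelial and mural cells and 1 of 10 for neutrophils. Genes with no such peak in any library were 7 of 10 for neurons, 9 of 10 for lymphocytes, 6 of 10 for astrocytes, 6 of 9 for oligodendrocytes, 5 of 10 for endothelial and mural cells and 7 of 10 for neutrophils, so that others had one in some libraries. Distal members near them were 1 of 15 regions for astrocytes, beside the glutamate transporter gene Slc1a3 (31, 26, 35 and 43, with a CTCF match), 2 of 12 for lymphocytes (16.7%, beside 9.59% of all distal regions), and 0 of 6 for neurons, 14 for oligodendrocytes, 17 for endothelial and mural cells and 6 for neutrophils. Counts this small say little on any of these lists. Both lymphocyte members lay near Klrb1c, the gene of the NK1.1 antigen, in an intron of Gm44511, and the stronger of them, chr6:128802962-128803459, had pileups of 408, 336, 453 and 541, above the upper quartile of members, with a mean scaled pileup of 7.21 against 2.08.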

How the data were processed

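Every library has its own deposited list of peaks. These were called by the authors with MACS2, without pooling of libraries, in version 2.1.1.20160309 per the file headers, at a p cutoff of 0.01 and with cut sites shifted by -37 bp and extended to 73 bp; the submitters' processing notes also name bcl2fastq, Bowtie2, deepTools and mm10. The deposited pileup is a signal, the number of extended cut sites over a summit, not scaled for depth. As a ratio, the deposited fold enrichment sets the pileup against local background. The deposited −log10 q was read but supports no result here. Coordinates are counted from 1.

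Intervals repeated for several summits were reduced to 1 peak with its largest pileup, and touching peaks were merged (Python 3.11.15, pandas 2.3.3, numpy 2.4.6). TSSs and locations came from GENCODE M21 and sequences from GRCm38. All autosomal peaks lay inside the GRCm38 chromosome lengths. Shares carry 95% Wilson intervals (scipy 1.17.1), for counting error only. No test was run between genotypes or classes, since the rule used all 4 libraries. The pipeline was tested on simulated lists.

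The members, gene lists and motifs were chosen with earlier results of these data known. Regions were named by rule: the 5 with the most signal, the 3 farthest from a TSS, the strongest with a motif (2 for CTCF and ETS-IRF, 1 for ISRE, PU.1, AP-1, CEBP, RUNX, MAF and MEF2), the strongest near listed genes, those near Irf8, and the nearest to the limit on each side. Irf2, and the further genes named without a region, were chosen after their values were seen. One of the regions that this rule picks is not reported here. Alternatives are given in the closing section.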

Additional observations from a re-analysis of the deposited data

How the results depend on the processing

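The number of members, 2095 or 9.59% of distal regions found in all 4 libraries, was set by the choices in the rule. A ratio limit of 1.2 gave 1275 (5.83%) and of 1.5 gave 7500 (34.3%). Division by tags gave 339 (1.55%), none of them shared with the 2095. Fold enrichment in place of pileup gave 13.8%, with 1060 shared regions (50.6% of the 2095 and 35.2% of the alternative's 3014), a floor of 0.5 per 1000000 tags gave 13.5%, and peaks covering at least 50% of the region in each library gave 10.5%. Leaving out 1 library gave 3968 to 5721 regions and 17.6% to 20.2%. Fewer values then had to meet the limit and 22340 to 28282 distal regions qualified, and the most came without IRF8KO replicate 1.

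The CTCF share of members minus that of other distal regions, 3.86 percentage points, became 9.25 by tags, 1.49 by fold enrichment, 1.34 with the higher floor and -0.217 within the highest of 5 groups by signal, the one setting of 15 with the other sign. It was 3.43 to 5.02 when 1 library was left out. The ETS-IRF difference of -1.84 became -2.99 by tags, -0.381 by fold enrichment, where its interval (-1.15 to 0.487) spans 0, and -2.75 in that group. Its sign was the same in all 15 settings. The AP-1 difference of -1.99 became -3.63 by tags, -3.32 with the higher floor, -3.07 in that group and -1.19 (-2.15 to -0.134) by fold enrichment, with the same sign in all 15. The PU.1 difference of 0.122 became -5.09 by tags and 6.12 in that group. The cause of these shifts was not tested. Leaving out repeated windows and counting the starts of genes of the annotation class TEC were added after the data were seen, and left 2000 and 2071 regions. No paired analysis was possible because the results are counts and shares of regions that come from no test between the genotypes. The labels tie no WT library to an IRF8KO library beyond a shared number. Depth limits the lowest group by signal, where counting error was 20.4% of a value.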
